A study of Homo sapiens with 18 samples.

Results

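The 33 genes described here belong to the ATF4 arm of the integrated stress response and to the charging of transfer RNA (tRNA), and they were listed by name for their known roles, at a time when earlier results of these data were known. Each of the 33 matched 1 row of the deposited table through its Ensembl transcripts (older symbols such as AARS for AARS1 counted), out of 57736 rows in all, and all 33 passed the filter on low counts that left 15318 genes for testing. They were ordered by role: 7 transcription factors and regulators, 4 genes acting on translation or on the growth kinase complex mTORC1, 4 amino acid transporters, 5 metabolic enzymes and receptor genes, and 13 genes of tRNA export and charging (the exporter XPOT and 12 cytosolic aminoacyl-tRNA synthetases). Figure labels call the second group brakes, although 1 of its genes, PPP1R15A, helps translation restart.

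RNA was measured in PEO1, an established human ovarian cancer cell line, in a series whose title concerns mutant p53 and the estrogen receptor. Cells had been given a control siRNA (siControl) or an siRNA labelled sip53, were held for 48 h in phenol red-free medium with charcoal-stripped serum, which removes steroid hormones, and then received 10 nM estradiol (E2) for 0, 2 or 8 h. The 0 h samples had no E2, and no E2-free sample was labelled for 2 h or 8 h, so E2 and the hours elapsed cannot be told apart. There were 6 groups of 3 samples (18 libraries) with 1 siRNA label per arm. The labels do not say whether the 3 samples came from separate cultures, so the spread behind each p-value may be technical.

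ATF4 is a transcription factor whose protein is made when amino acids run short or proteins misfold, because phosphorylation of the initiation factor eIF2 slows most translation but favours the ATF4 message. ATF4 protein then raises genes for amino acid import, amino acid synthesis and tRNA charging, together with feedback genes that restart translation. Message levels of ATF4 itself therefore need not follow ATF4 protein, and these data hold RNA only.

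Total counts per library ran from 7542457 to 11307199, and levels are given in CPM, counts of 3′-end reads scaled to each library's size by TMM, which do not scale with transcript length. All 10 epithelial and ovarian carcinoma markers were measured, and their summed level was 5088 to 5630 CPM in the siControl libraries and 6301 to 7633 CPM in the sip53 libraries. The list did not move as 1: PAX8 (log2 -0.15, -0.17 and 0.06 at 0, 2 and 8 h) and EPCAM (0.19, -0.10 and 0.01) did not reach an adjusted p under 0.05 at any time (edgeR). The abundant keratins KRT7, KRT18 and KRT19 were higher in sip53 at each time. ESR1, which encodes the E2 receptor ERα and is in the same list, was also higher in sip53, at log2 0.51 ± 0.12 SE, 0.37 ± 0.12 SE and 0.44 ± 0.12 SE at 0, 2 and 8 h (adjusted p = 0.0114, 0.0400 and 0.0237, edgeR). Of 10 markers of fibroblasts, leukocytes and endothelium that had a row, COL1A2, DCN, LUM, PTPRC and CD3E were at 0 in every library, and the summed level of all 10 was 15.5 to 30.8 CPM across the libraries. The part of these marker shifts in the results below was not tested. The siControl 0 h replicate 2 library stood apart on the second principal component (score -41.7) and was the shallowest, so calls of members that were lost without it are stated below. In bulk RNA, fewer cells making a transcript and less of it per cell cannot be told apart.

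The C/EBP-ATF response element is the composite site at which ATF4 pairs with C/EBP proteins. Its core, TGATGNAA, was searched on both strands of RefSeq promoters (GRCh38.p14, 250 bases before to 50 after each start site). A promoter entry was found for 28 members, and the others are EIF4EBP1, GPT2, LARS1, NUPR1 and YARS1. The core was present in 12 of the 28 (42.9%), against 1217 of 27305 genes (4.46%). Within tRNA export and charging it was present in 7 of 11 members (63.6%), all of them synthetases, while 7 of 21 other ATF4 target genes (33.3%) and none of 9 other cytosolic synthetase and scaffold genes held it. The E-box CACGTG was found in 4 of 28 members (14.3%) against 8.77% of genes, and the full estrogen response element, GGTCA and TGACC with any 3 bases between them, in 0 of 28 against 20 of 27305 genes (0.0732%). Windows of 8 members follow, because they let a reader compare the core and its flanks among regulators, transporters, ASNS and synthetases. Each line gives 30 bases, 5′ to 3′ on the strand that reads TGATG, with the core in capitals.
CEBPG, chr19:33374060-33374089, plus strand: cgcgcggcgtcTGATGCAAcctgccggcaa
SLC1A4, chr2:64989381-64989410, minus strand: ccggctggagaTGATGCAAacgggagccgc
SLC1A5, chr19:46784893-46784922, minus strand: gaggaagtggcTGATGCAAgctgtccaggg
IARS1, chr9:92293692-92293721, plus strand: gcgcacggaggTGATGCAAcgcgctgaaaa
MARS1, chr12:57488053-57488082, minus strand: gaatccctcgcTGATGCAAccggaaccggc
CARS1, chr11:3057407-3057436, plus strand: ttcctagaatcTGATGCAAccgccgccccg
ASNS, chr7:97872458-97872487, minus strand: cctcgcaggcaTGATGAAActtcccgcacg
ATF3, chr1:212565205-212565234, plus strand: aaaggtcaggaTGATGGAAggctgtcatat

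After 8 h of E2 in siControl cells, 10 of the 33 members were higher than at 0 h and 0 were lower, at an adjusted p under 0.05 (edgeR's quasi-likelihood test with Benjamini-Hochberg adjustment over all 15318 genes). Over all genes tested, 1.78% were called higher and 0.823% lower in that comparison. The 10 were the regulators DDIT3, CEBPB, CEBPG and TRIB3, the mTORC1 inhibitors DDIT4 and SESN2, the transporters SLC7A5, SLC1A4 and SLC38A2, and the tRNA exporter XPOT. In sip53 cells 7 members were higher and 0 lower (DDIT3, CEBPB, DDIT4, SESN2, SLC7A5, SLC38A2 and XPOT), against 1.55% and 1.18% of all genes. None of the 12 synthetases was called in either arm by edgeR or DESeq2. The median log2 fold change of the 20 members outside tRNA export and charging was 0.46 in siControl, with all 20 above 0, and 0.33 in sip53, with 17 above 0, whereas the 13 genes of tRNA export and charging had medians of 0.09 and -0.00, and the medians over all genes tested were -0.00 and -0.01.

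**Figure D1:**
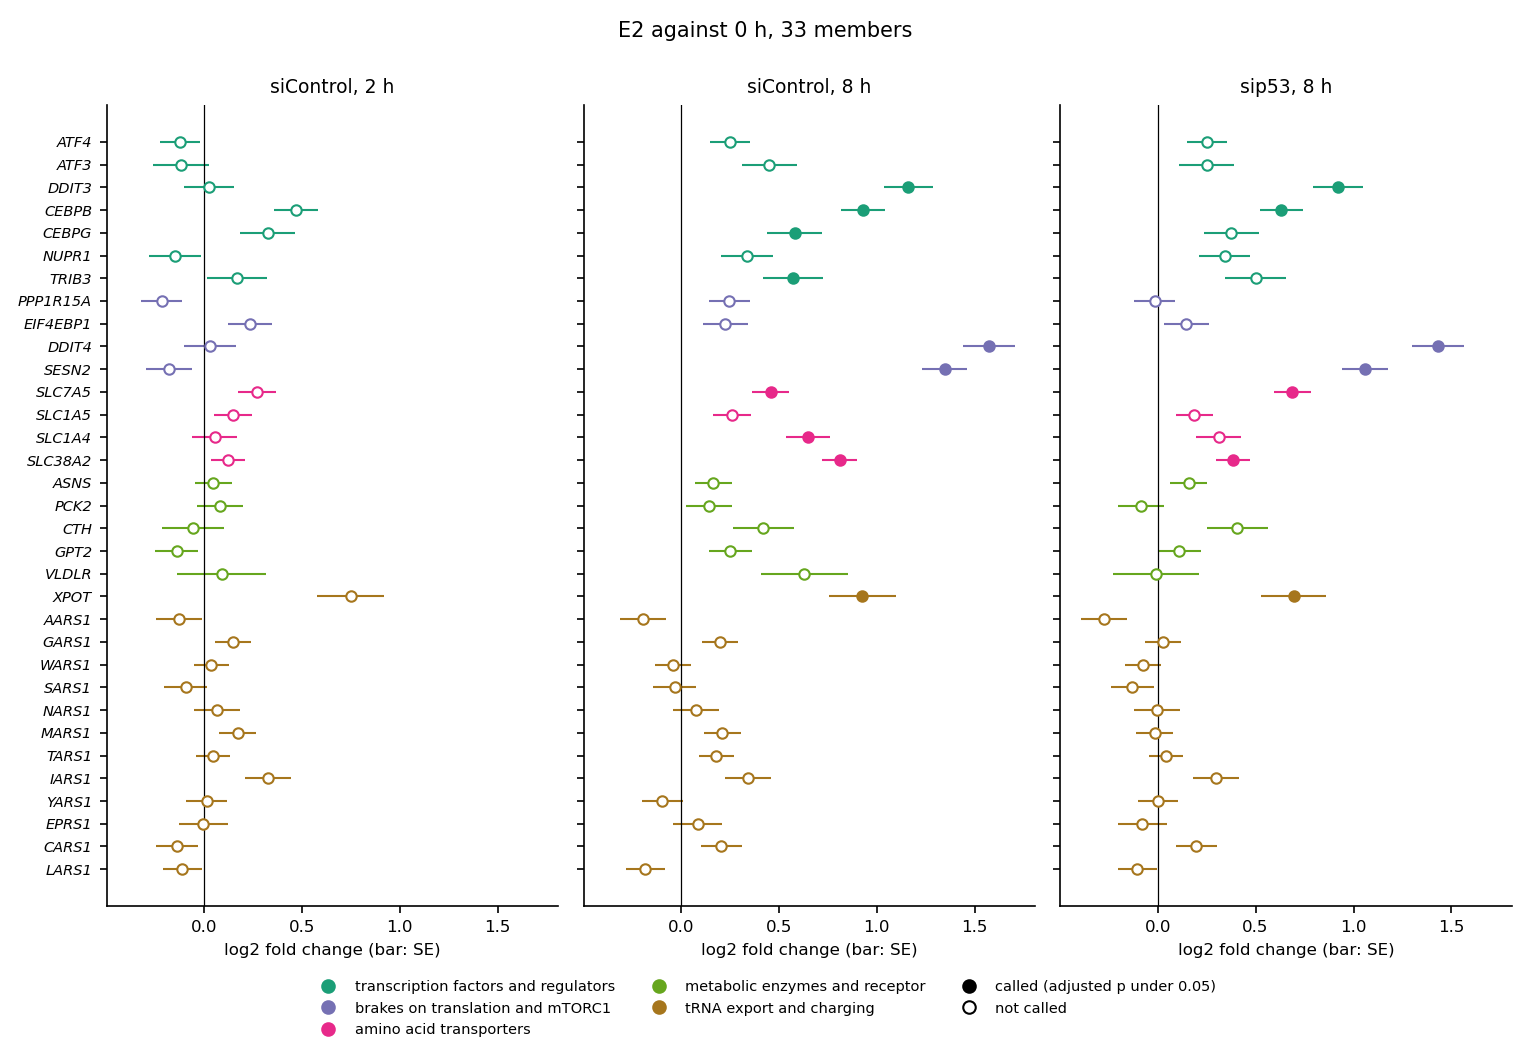
Log2 fold change (x axis) with its standard error (bars) for each of the 33 members (y axis) at 2 h and 8 h of E2 in siControl and at 8 h in sip53, each against 0 h of the same arm; filled points were called at an adjusted p under 0.05 and colours mark the 5 role groups. Filled points at 8 h lie among regulators, mTORC1 inhibitors, transporters and XPOT, and the 12 synthetases below XPOT sit between -0.27 and 0.34.

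DDIT4 (chr10:72273920-72276036 on GRCh38), which encodes REDD1, an inhibitor of mTORC1, had the largest fold change of the members in both arms. In siControl its level was 79.8, 64.9 and 54.9 CPM at 0 h, 75.9, 66.4 and 62.0 CPM at 2 h, and 179, 226 and 189 CPM at 8 h. In sip53 it was 65.6, 59.6 and 65.3 CPM at 0 h, 78.8, 66.8 and 58.3 CPM at 2 h, and 182, 170 and 163 CPM at 8 h. Every 8 h library lay above every earlier one, and the 0 h and 2 h libraries overlapped. The rise at 8 h was 2.97-fold in siControl (log2 1.57 ± 0.13 SE, adjusted p = 1.38e-07, edgeR) and 2.70-fold in sip53 (log2 1.43 ± 0.13 SE, adjusted p = 3.29e-07, edgeR), n = 3 per group.

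SESN2 (chr1:28259527-28282491), the leucine sensor Sestrin 2 that also holds mTORC1 down and is known as a target of both ATF4 and p53, behaved alike in time but at a lower level in sip53. Its siControl level was 66.1, 65.9 and 48.6 CPM at 0 h, 58.6, 51.7 and 49.4 CPM at 2 h, and 141, 166 and 153 CPM at 8 h. Its sip53 level was 43.5, 45.0 and 41.0 CPM at 0 h, 47.6, 46.2 and 42.2 CPM at 2 h, and 94.0, 90.4 and 84.9 CPM at 8 h. All 8 h libraries exceeded all earlier ones, and the sip53 8 h libraries lay below the siControl 8 h libraries. SESN2 rose 2.55-fold in siControl (log2 1.35 ± 0.12 SE) and 2.08-fold in sip53 (log2 1.06 ± 0.12 SE). The other 2 genes of this group were not called at 8 h against 0 h in either arm (edgeR). PPP1R15A, the phosphatase subunit that reverses eIF2 phosphorylation and so helps translation restart, gave log2 0.25 ± 0.10 SE in siControl and -0.01 ± 0.10 SE in sip53. EIF4EBP1, which blocks the cap-binding factor eIF4E, gave 0.23 ± 0.11 SE and 0.15 ± 0.11 SE.

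**Figure D2:**
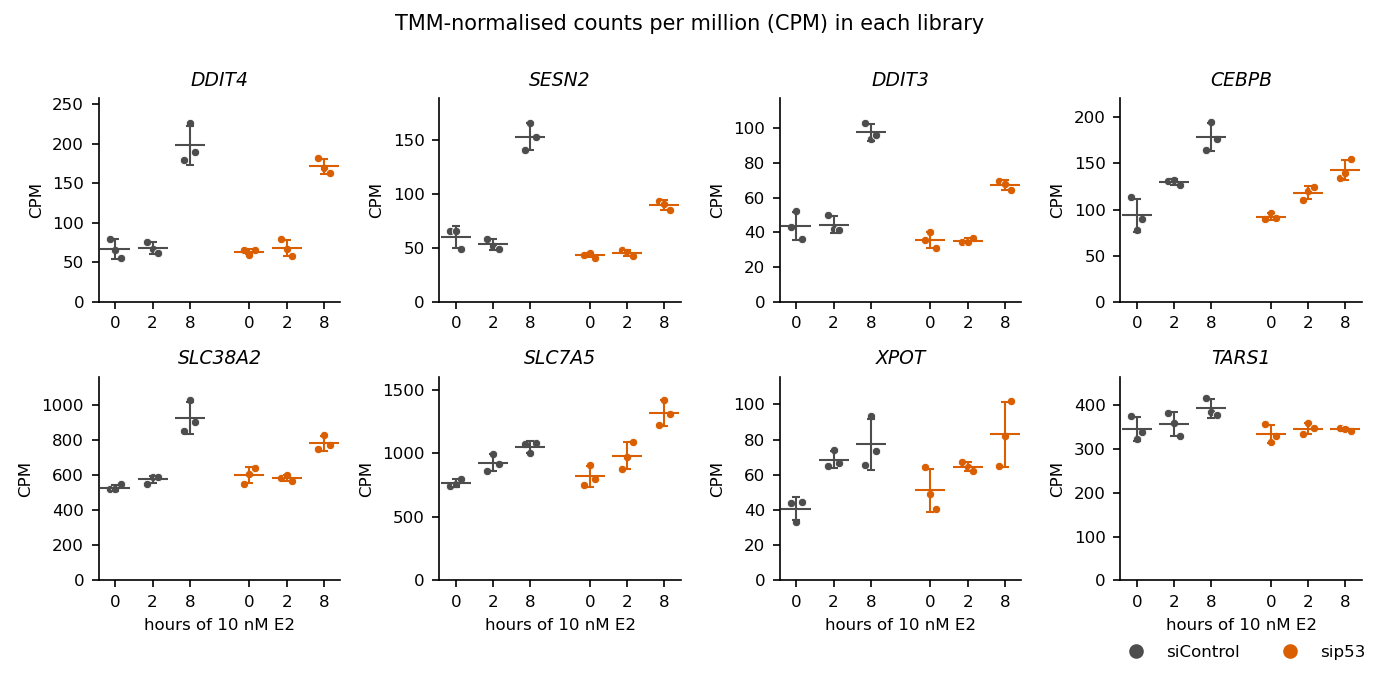
CPM (y axis, from 0) of 8 members in each of the 18 libraries by hours of E2 (x axis), grey for siControl and orange for sip53; dashes and bars are the mean and SD of 3 libraries. The 8 h libraries of DDIT4, SESN2 and DDIT3 stand clear of those at 0 h and 2 h in both arms, while those of the synthetase TARS1 do not.

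Among the regulators, DDIT3 (chr12:57516588-57521737), which encodes CHOP, a C/EBP family factor induced downstream of ATF4, had the largest fold change. Its siControl level was 42.8, 52.2 and 36.0 CPM at 0 h, 50.0, 42.0 and 41.3 CPM at 2 h, and 103, 93.6 and 95.9 CPM at 8 h. Its sip53 level was 35.7, 39.9 and 30.9 CPM at 0 h, 34.5, 34.6 and 36.6 CPM at 2 h, and 69.5, 67.8 and 64.1 CPM at 8 h. The 8 h libraries did not overlap earlier ones in either arm, and the 2 h libraries fell within or close to the 0 h range. DDIT3 rose 2.23-fold in siControl (log2 1.16 ± 0.13 SE, adjusted p = 3.39e-06, edgeR) and 1.89-fold in sip53 (log2 0.92 ± 0.13 SE, adjusted p = 7.95e-05, edgeR). DDIT3 overlaps MARS1 by 982 bases on the opposite strand in GENCODE v29, and whether the counting used strand was not stated in the sources used here. The part of that overlap in the DDIT3 values was not tested. MARS1, the methionyl-tRNA synthetase, gave log2 0.21 ± 0.09 SE and -0.01 ± 0.09 SE in the same comparisons.

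CEBPB, a C/EBP factor that can pair with ATF4, was 113, 77.9 and 89.8 CPM at 0 h, 131, 132 and 126 CPM at 2 h and 165, 195 and 176 CPM at 8 h in siControl. In sip53 it was 89.6, 96.5 and 90.6 CPM at 0 h, 110, 120 and 124 CPM at 2 h and 135, 140 and 155 CPM at 8 h. Its levels were already above the 0 h range at 2 h in both arms, with no overlap, although neither 2 h difference was called (log2 0.47 ± 0.11 SE, adjusted p = 0.0803 in siControl, edgeR). At 8 h it rose by log2 0.93 ± 0.11 SE in siControl and 0.63 ± 0.11 SE in sip53.

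CEBPG, the C/EBP factor that most often pairs with ATF4 at amino acid genes, was called in siControl alone at log2 0.58 ± 0.14 SE (adjusted p = 0.0237, edgeR), and in sip53 it gave 0.38 ± 0.14 SE (adjusted p = 0.183). The siControl call was lost without siControl 0 h replicate 2 (adjusted p = 0.127), 0 h replicate 3 (0.106) or 8 h replicate 2 (0.153), and with only the groups compared (0.107). TRIB3, a pseudokinase that restrains ATF4 in feedback, was called in siControl at log2 0.57 ± 0.15 SE (adjusted p = 0.0463, edgeR). That call was kept without siControl 0 h replicate 1 and lost without any other of the 6 libraries, at adjusted p of 0.0557 to 0.256, and with only the groups compared (0.117).

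ATF4 itself was an abundant message that was not called with E2 in either arm alone. It was 727, 773 and 648 CPM at 0 h, 788, 602 and 586 CPM at 2 h and 879, 842 and 834 CPM at 8 h in siControl. In sip53 it was 663, 768 and 784 CPM at 0 h, 762, 767 and 769 CPM at 2 h and 922, 867 and 846 CPM at 8 h. All 8 h libraries of an arm lay above that arm's earlier ones, and the sizes were small, log2 0.25 ± 0.10 SE in each arm (adjusted p = 0.204 and 0.240, edgeR). ATF3, an early stress factor, and NUPR1, a small chromatin protein, gave 0.45 ± 0.14 SE and 0.34 ± 0.13 SE in siControl and 0.25 ± 0.14 SE and 0.34 ± 0.13 SE in sip53, none of them called.

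Of the transporters, SLC38A2 (chr12:46358189-46372867), the sodium-coupled importer SNAT2 of small neutral amino acids, was called in both arms. Its siControl level was 518, 518 and 549 CPM at 0 h, 551, 588 and 587 CPM at 2 h and 851, 1028 and 901 CPM at 8 h. Its sip53 level was 549, 608 and 640 CPM at 0 h, 582, 602 and 564 CPM at 2 h and 746, 827 and 770 CPM at 8 h. The 8 h libraries were the highest in each arm without overlap. SLC38A2 rose by log2 0.81 ± 0.09 SE in siControl and 0.38 ± 0.09 SE in sip53 (adjusted p = 0.0145, edgeR), the latter lost without sip53 0 h replicate 1 (adjusted p = 0.108), 0 h replicate 2 (0.0509) or 8 h replicate 2 (0.0818).

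SLC7A5, the light chain of the leucine transporter LAT1, was 742, 758 and 799 CPM at 0 h, 862, 994 and 919 CPM at 2 h and 1078, 999.6 and 1082 CPM at 8 h in siControl. In sip53 it was 749, 910 and 796 CPM at 0 h, 879, 971 and 1091 CPM at 2 h and 1222, 1423 and 1311 CPM at 8 h. SLC7A5 rose by log2 0.46 ± 0.10 SE in siControl and 0.69 ± 0.10 SE in sip53, with no overlap between 0 h and 8 h in either arm. SLC1A4, a carrier of serine and alanine, was 45.2, 51.7 and 45.0 CPM at 0 h, 46.5, 52.0 and 48.8 CPM at 2 h and 76.3, 71.4 and 74.7 CPM at 8 h in siControl, a rise of log2 0.65 ± 0.11 SE (adjusted p = 0.0019, edgeR). In sip53 SLC1A4 was 44.0, 42.6 and 55.1 CPM at 0 h, 45.7, 50.0 and 51.6 CPM at 2 h and 52.6, 64.1 and 59.0 CPM at 8 h, which overlapped and was not called (log2 0.31 ± 0.11 SE). The glutamine carrier SLC1A5 gave log2 0.26 ± 0.10 SE and 0.19 ± 0.10 SE and was called in neither arm.

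None of the 5 metabolic enzyme and receptor genes was called at 8 h in a single arm by edgeR or DESeq2, and at an unadjusted p under 0.05 there were 3 in siControl and 1 in sip53 (all genes: 2583 and 2184). ASNS, asparagine synthetase, a textbook ATF4 target whose promoter window holds the core, was 407, 421 and 364 CPM at 0 h and 446, 457 and 435 CPM at 8 h in siControl, or log2 0.17 ± 0.10 SE. CTH, which makes cysteine, gave 0.42 ± 0.16 SE in siControl and 0.41 ± 0.16 SE in sip53. GPT2 and PCK2, mitochondrial enzymes of alanine and phosphoenolpyruvate metabolism, gave 0.25 ± 0.11 SE and 0.14 ± 0.12 SE in siControl. VLDLR, a lipoprotein receptor and the least abundant member at 5.0 to 9.92 CPM, gave 0.63 ± 0.22 SE in siControl and -0.01 ± 0.22 SE in sip53.

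XPOT (chr12:64404350-64451127), the export receptor that carries tRNA out of the nucleus, differed from the synthetases it was grouped with. Its siControl level was 44.0, 33.2 and 44.8 CPM at 0 h, 64.9, 74.0 and 66.5 CPM at 2 h and 65.3, 93.4 and 73.5 CPM at 8 h. In sip53 it was 64.2, 48.9 and 40.5 CPM at 0 h, 67.1, 64.5 and 62.1 CPM at 2 h and 65.0, 81.9 and 102 CPM at 8 h. In siControl the 2 h and 8 h libraries overlapped each other and lay above all 0 h libraries. XPOT rose by log2 0.93 ± 0.17 SE at 8 h in siControl (adjusted p = 0.00308, edgeR) and 0.69 ± 0.17 SE in sip53 (adjusted p = 0.0222). The sip53 call did not hold without 0 h replicate 2 (adjusted p = 0.0785), 0 h replicate 3 (0.140) or 8 h replicate 3 (0.164) of that arm, or with only the groups compared (0.0779).

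The 12 synthetases, each of which joins 1 amino acid (EPRS1: glutamate and proline) to its tRNA, ranged from log2 -0.19 (AARS1, alanine) to 0.34 (IARS1, isoleucine) in siControl at 8 h and from -0.27 (AARS1) to 0.30 (IARS1) in sip53. IARS1 was 90.8, 65.1 and 95.8 CPM at 0 h and 101, 112 and 106 CPM at 8 h in siControl, and 94.6, 95.6 and 93.9 CPM against 104, 117 and 129 CPM in sip53. The 8 h libraries exceeded the 0 h libraries in both arms, yet neither difference was called (0.34 ± 0.12 SE, adjusted p = 0.125, and 0.30 ± 0.12 SE, adjusted p = 0.211, edgeR). TARS1, for threonine, was 377, 323 and 339 CPM at 0 h and 418, 384 and 377 CPM at 8 h in siControl, where the lowest 8 h library lay just above the highest 0 h library (log2 0.18 ± 0.09 SE). At an unadjusted p under 0.05 there were 5 of the 13 tRNA genes in siControl, beside 2583 of all 15318 genes, and 3 in sip53, beside 2184, with XPOT among them in both.

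At 2 h of E2 edgeR called 0 of 33 members in siControl and 0 in sip53, against 0.228% of genes higher and 0% lower in siControl, and 0.268% higher and 0.0392% lower in sip53. At an unadjusted p under 0.05 there were 5 members in siControl, beside 1748 of all 15318 genes, and 7 in sip53, beside 1139. DESeq2 called XPOT (log2 0.74, adjusted p = 0.00505) and CEBPB (log2 0.46, adjusted p = 0.0120) in siControl and EIF4EBP1 (log2 0.44, adjusted p = 0.0372) in sip53. In edgeR, XPOT and CEBPB were also called in siControl without the low-count filter (adjusted p = 9.7e-06 and 0.0133) and without siControl 0 h replicate 1 (0.0418 and 0.00522), and XPOT alone after removal of a trend in length and GC (0.0352).

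From 2 h to 8 h, a comparison added after the data were seen, 8 members were higher in siControl and 5 in sip53, with 0 lower in both. The backgrounds were 0.646% higher and 0.379% lower in siControl, and 0.823% higher and 0.555% lower in sip53. DDIT3, DDIT4, SESN2 and SLC38A2 were called in both arms, with DDIT4 at log2 1.54 ± 0.13 SE and 1.33 ± 0.13 SE and SESN2 at 1.53 ± 0.12 SE and 0.99 ± 0.12 SE. SLC1A4, PPP1R15A, CEBPB and ATF3 completed the siControl list, and SLC7A5 the sip53 list. XPOT was not called between 2 h and 8 h (log2 0.18 ± 0.17 SE in siControl and 0.36 ± 0.17 SE in sip53). The ATF3 and CEBPB calls were lost in each of the 6 fits that left out a library, with adjusted p of up to 0.215 and 0.213, and PPP1R15A was kept in 1 of 6. ATF3 and CEBPB were also not called with a replicate block (0.0595 and 0.0620), and ATF3 was not called with upper-quartile scaling (0.0573), no filter (0.0823) or only the groups compared (0.0637). In siControl SLC1A4 was lost without 2 h replicate 1 (0.0528). In sip53 SLC38A2 was lost without 2 h replicate 1 (0.0562), 2 h replicate 3 (0.0772) or 8 h replicate 2 (0.0684), and SLC7A5 without 2 h replicate 1 (0.168), 2 h replicate 2 (0.107) or 8 h replicate 2 (0.118).

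Averaging the 8 h response over both arms, also added after the data were seen, used 12 libraries and called 16 members higher and 0 lower, against 5.16% and 4.44% of all genes. All 7 regulators and all 4 transporters were among the 16, with DDIT4, SESN2, CTH, XPOT and IARS1. IARS1, at log2 0.32 ± 0.08 SE (adjusted p = 0.0149, edgeR), was the one synthetase and kept its call in all 12 fits that left out a library. ATF4 was called at log2 0.25 ± 0.07 SE (adjusted p = 0.0301), ATF3 at 0.35 ± 0.10 SE, NUPR1 at 0.34 ± 0.09 SE and SLC1A5 at 0.22 ± 0.07 SE. These 4 calls were weak: of 12 such fits they were kept in 6, 5, 7 and 4. Without siControl 0 h replicate 2, ATF3 (adjusted p = 0.0614) and SLC1A5 (0.0770) were lost. SLC1A5 was also not called with RLE (0.0531) or upper-quartile scaling (0.0517), or after removal of a trend in length and GC (0.0548). With only the groups compared SLC1A5 (0.105), ATF3 (0.0614) and NUPR1 (0.0602) were not called, nor was ATF3 with no filter (0.0687, edgeR throughout). CTH was lost without siControl 8 h replicate 2 (0.0768).

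The E2 response was then compared between the arms. Neither at 2 h nor at 8 h was any member called (edgeR), and over all genes 0% were called higher and 0% lower at both times. At an unadjusted p under 0.05 there were 0 members at 2 h and 2 at 8 h, SLC38A2 (difference in log2 fold change, sip53 minus siControl, -0.43 ± 0.12 SE, unadjusted p = 0.00204) and SLC1A4 (-0.34 ± 0.16 SE, unadjusted p = 0.0464), and after adjustment both were at 0.999. With 1 library left out that count was 0 to 3 at 2 h (3 without siControl 2 h replicate 1) and 1 to 6 at 8 h (6 without siControl 0 h replicate 1). DESeq2 also called 0 members at either time, and 1 and 2 genes of the whole table. At 8 h the difference was below 0 for 29 of 33 members, with a median of -0.14 against -0.02 over all genes tested. The members share libraries, so these signs are not independent of each other, and a response that differs between the arms was not shown for any of them.

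Of the 12 members with the core in a promoter window, 2 were called at 8 h in siControl (CEBPG and SLC1A4) and 0 in sip53, with medians of log2 0.21 and 0.17. Of the 16 members with a promoter entry and no core, 8 were called in siControl and 7 in sip53, with medians of 0.52 and 0.40. All of these calls were higher, and over all genes tested 1.78% were called higher in siControl and 1.55% in sip53. In the averaged comparison 5 of 12 and 10 of 16 were called higher, against 5.16% of all genes. DDIT3, DDIT4, SESN2, SLC38A2 and SLC7A5 were called higher without these letters in the windows searched, and MARS1, CARS1 and ASNS carried them without being called. No match says only that the letters are not in these windows, and the difference between the 2 sets was not tested. The sets also differ in role: 7 of the 12 with the core were synthetases, none of which was called at 8 h in a single arm. Of the 17 members of other groups with a promoter entry, 5 held the core. The core and the role of a gene therefore cannot be told apart in this split.

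Against siControl at the same time, sip53 libraries were lower for 4 members at 0 h (PPP1R15A, SESN2, SARS1 and LARS1), for 3 at 2 h (PPP1R15A, SARS1 and LARS1) and for 6 at 8 h (ATF3, DDIT3, PPP1R15A, SESN2, SARS1 and LARS1), and SLC7A5 was higher at 8 h. No member was higher at 0 h or 2 h. Of all genes tested, 3.98%, 4.42% and 2.81% were called higher at 0, 2 and 8 h and 5.14%, 7.79% and 6.14% were called lower, so the 3 of 33 members lower at 2 h were near the share of all genes. With the 3 times averaged, 1 member was higher (SLC7A5, lost without sip53 0 h replicate 2, 2 h replicate 3 or 8 h replicate 2, at adjusted p of up to 0.0566, and at 0.116 after removal of a trend in length and GC) and 11 were lower (ATF3, DDIT3, TRIB3, PPP1R15A, SESN2, CTH, SARS1, NARS1, EPRS1, CARS1 and LARS1), against 16.1% and 18.5% of all genes. The median log2 fold change of the 33 was -0.07, -0.04 and -0.24 at 0, 2 and 8 h, beside -0.00, 0.00 and 0.01 over all genes. The 3 times use different libraries, and the E2 and knockdown comparisons share libraries.

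**Figure D3:**
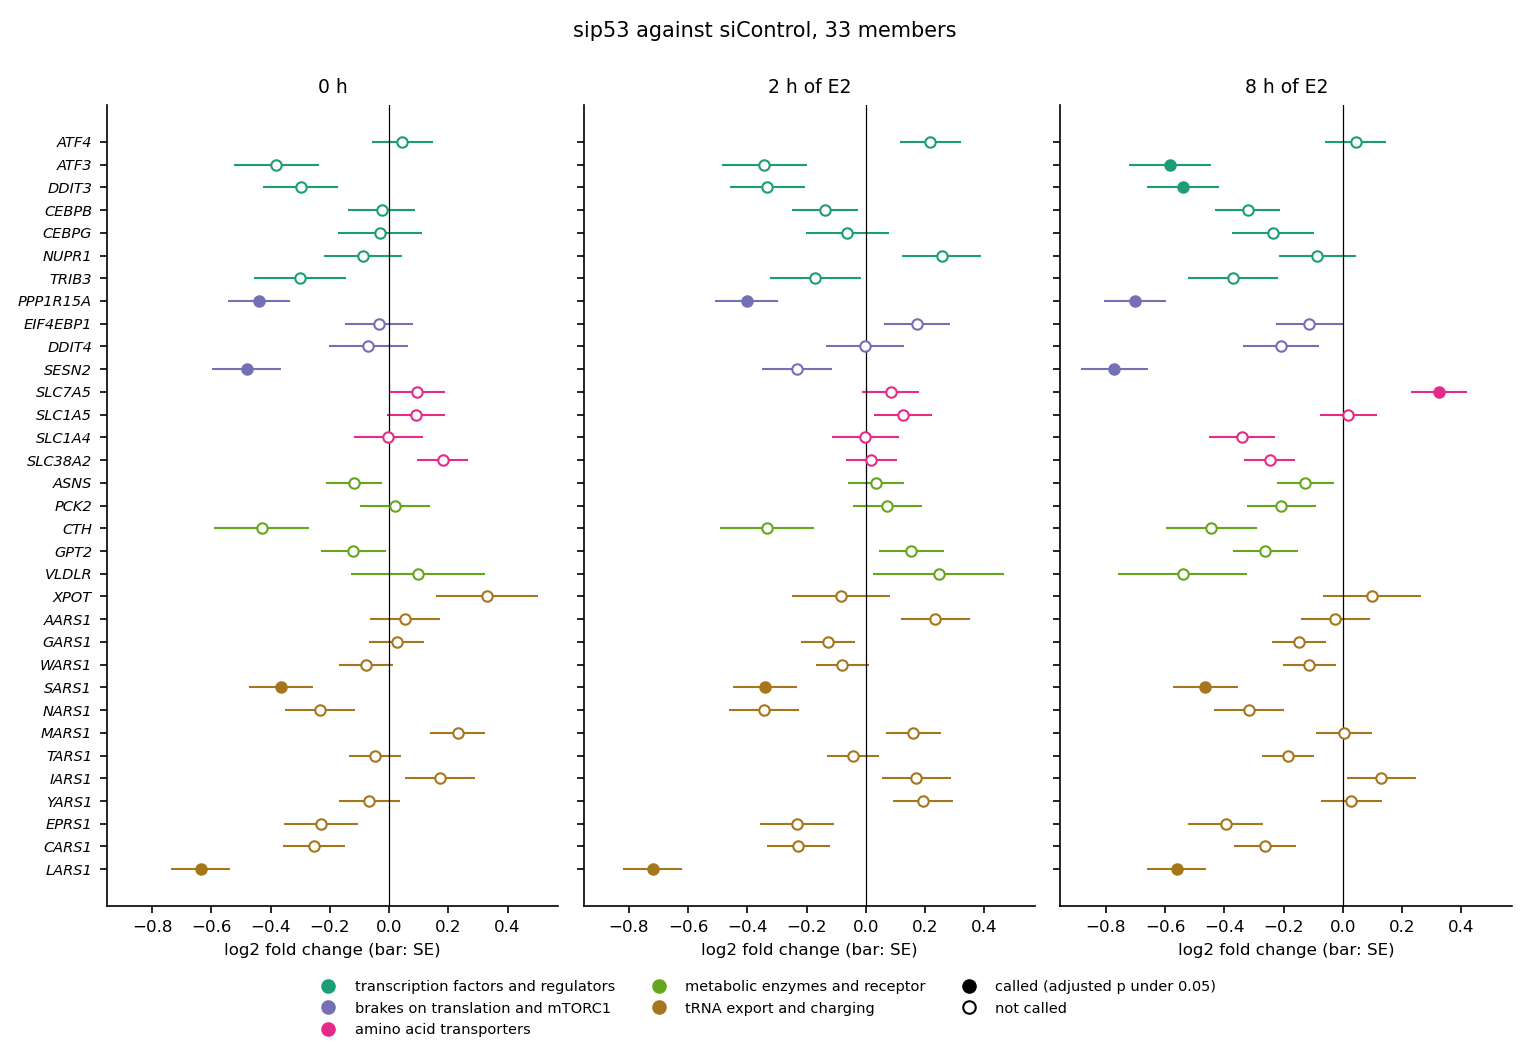
Log2 fold change of sip53 against siControl (x axis) with its standard error (bars) for the 33 members (y axis) at 0, 2 and 8 h of E2; filled points were called at an adjusted p under 0.05. LARS1, SARS1 and PPP1R15A are filled and below 0 in all 3 panels, and SLC7A5 at 8 h is the one filled point above 0.

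LARS1 (chr5:146113038-146182660), the leucyl-tRNA synthetase, which also serves as a leucine sensor for mTORC1, was lower in sip53 at every time. It was 231, 236 and 231 CPM in siControl and 172, 146 and 130 CPM in sip53 at 0 h. At 2 h it was 198, 239 and 209 CPM in siControl and 133, 133 and 126 CPM in sip53, and at 8 h 207, 204 and 204 CPM in siControl and 141, 147 and 130 CPM in sip53. All 9 sip53 libraries lay below all 9 siControl libraries. The log2 fold change was -0.64 ± 0.10 SE at 0 h (adjusted p = 0.000622), -0.72 ± 0.10 SE at 2 h (0.000129) and -0.56 ± 0.10 SE at 8 h (0.00147, edgeR throughout), and all 3 calls were kept without any 1 library.

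SARS1, the seryl-tRNA synthetase, was 528, 559 and 484 CPM in siControl and 432, 385 and 403 CPM in sip53 at 0 h. It was 530, 485 and 457 against 360, 405 and 398 CPM at 2 h, and 507, 564 and 468 against 383, 428 and 304 CPM at 8 h. The arms did not overlap at any time, and the log2 fold changes were -0.36 ± 0.11 SE, -0.34 ± 0.11 SE and -0.46 ± 0.11 SE. Its calls were fragile: at 0 h the call was lost without siControl replicate 1 or 2 or sip53 replicate 2 or 3 (adjusted p of up to 0.150), at 2 h without any 1 of the 6 libraries (up to 0.166), and at 8 h without siControl replicate 2 (0.0769) or sip53 replicate 3 (0.109). SARS1 was also not called at 0 h after removal of a trend in length and GC (0.0720) or with only the groups compared (0.0955), nor at 2 h after that removal (0.0924) or with upper-quartile scaling (0.0501). Averaged over the times, SARS1 stood at -0.39 ± 0.06 SE (adjusted p = 5.95e-05, edgeR) and was kept in all 18 fits. NARS1, EPRS1 and CARS1, for asparagine, glutamate with proline, and cysteine, were called in the averaged comparison at -0.30 ± 0.07 SE, -0.29 ± 0.07 SE and -0.25 ± 0.06 SE and at no single time, and EPRS1 was not called after removal of a trend in length and GC (adjusted p = 0.165). The other 7 synthetases and XPOT were called in none of the knockdown comparisons.

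**Figure D4:**
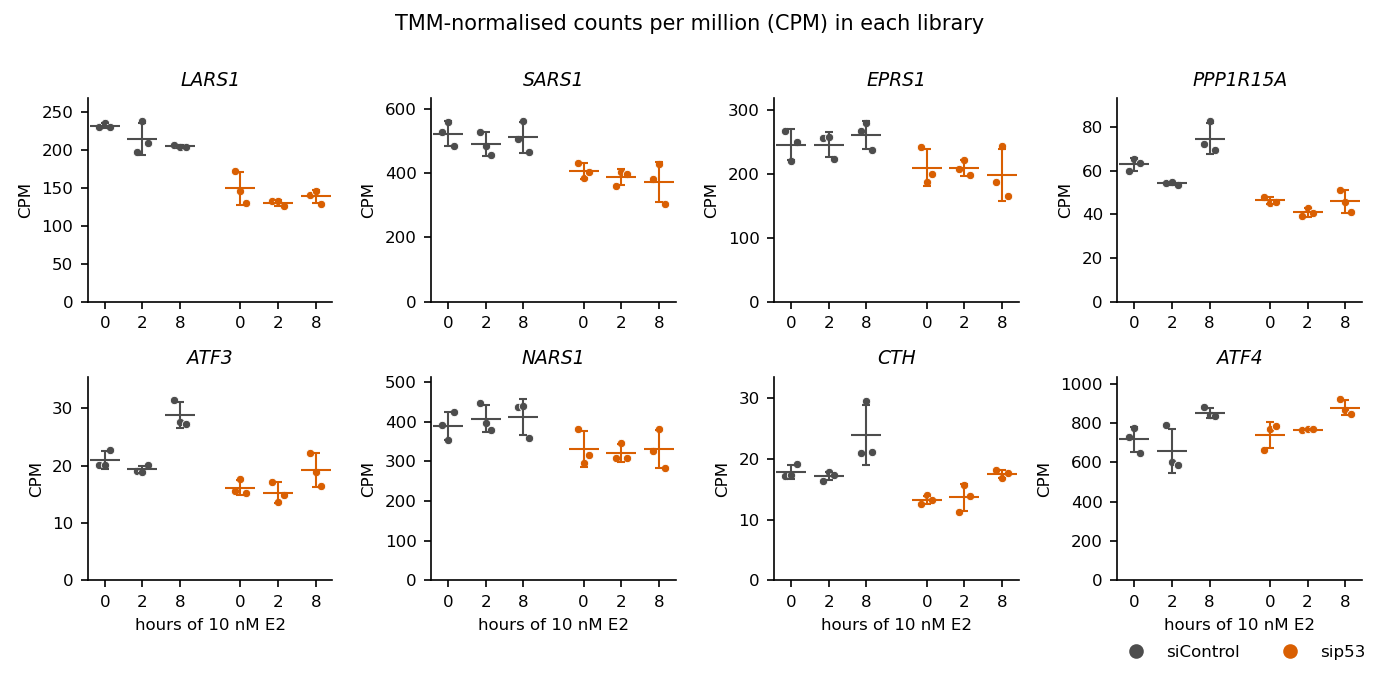
CPM (y axis, from 0) of 8 members in each of the 18 libraries by hours of E2 (x axis), grey for siControl and orange for sip53; dashes and bars are the mean and SD of 3 libraries. All LARS1 and PPP1R15A points of sip53 lie below those of siControl, and the ATF4 points of the arms overlap.

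PPP1R15A (chr19:48872392-48876057), which encodes GADD34, was 59.7, 65.4 and 63.7 CPM in siControl and 48.1, 45.3 and 45.9 CPM in sip53 at 0 h. It was 54.3, 55.0 and 53.3 against 39.2, 43.1 and 40.8 CPM at 2 h, and 72.2, 82.7 and 69.4 against 51.3, 45.7 and 40.9 CPM at 8 h. All sip53 libraries lay below all siControl libraries. The log2 fold change was -0.44 ± 0.10 SE, -0.40 ± 0.11 SE and -0.70 ± 0.10 SE (adjusted p = 0.0129, 0.0145 and 0.000333, edgeR). The 8 h call was kept without any 1 library. The 0 h call was lost without siControl replicate 2 (adjusted p = 0.0502), sip53 replicate 2 (0.0595) or sip53 replicate 3 (0.0735) or with only the groups compared (0.0795), and the 2 h call without siControl replicate 2 (0.0658), sip53 replicate 1 (0.0636) or sip53 replicate 3 (0.0629).

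With the levels given above, SESN2 in sip53 was log2 -0.48 ± 0.12 SE at 0 h, -0.23 ± 0.12 SE at 2 h and -0.77 ± 0.11 SE at 8 h, and the 2 h value was not called. Its 0 h call was lost without siControl replicate 2 (adjusted p = 0.0702) or sip53 replicate 3 (0.0956), or with only the groups compared (0.0999). DDIT3 was -0.30 ± 0.13 SE, -0.33 ± 0.13 SE and -0.54 ± 0.12 SE, called at 8 h, where the call was lost without siControl replicate 1 (0.0543) or sip53 replicate 3 (0.0639). ATF3 was 31.4, 27.7 and 27.3 CPM in siControl and 22.3, 19.0 and 16.4 CPM in sip53 at 8 h, with no overlap (log2 -0.58 ± 0.14 SE, adjusted p = 0.0108, edgeR), lost without the same siControl replicate 1 (0.0790) or sip53 replicate 3 (0.103). SLC7A5 at 8 h was log2 0.32 ± 0.10 SE (adjusted p = 0.0362), and this call was lost without any 1 of the 6 libraries (0.0505 to 0.130) and after removal of a trend in length and GC (0.0987).

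ATF4 was not called in sip53 at any time, at log2 0.04 ± 0.10 SE, 0.22 ± 0.10 SE and 0.04 ± 0.10 SE. A p that misses the threshold does not show equal levels. CTH, among the metabolic enzymes, was called in the averaged comparison at -0.40 ± 0.09 SE (adjusted p = 0.00143, edgeR). TRIB3 was called there at -0.28 ± 0.09 SE (adjusted p = 0.0166).

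Other genes of the pathway were read from lists chosen with earlier results of these data known. Of 26 tested other ATF4 target genes, 8 were higher and 1 was lower with E2 at 8 h in siControl, where 1.78% of all genes were higher and 0.823% lower. In sip53 3 were higher and 1 lower, beside 1.55% and 1.18% of all genes. The list medians were log2 0.34 and 0.16. CHAC1, which degrades glutathione and holds the core in its promoter, had log2 1.86 ± 0.15 SE in siControl and 1.51 ± 0.15 SE in sip53. STC2, a secreted stress glycoprotein, had 1.00 ± 0.08 SE and 1.08 ± 0.08 SE, and SLC3A2, the heavy chain that partners SLC7A5, 0.72 ± 0.09 SE and 0.80 ± 0.09 SE. The gene lower in both arms was the autophagy receptor SQSTM1 (-0.64 ± 0.09 SE and -0.63 ± 0.09 SE), named after its values were seen. PSAT1, of serine synthesis, was not called (0.35 ± 0.13 SE and 0.18 ± 0.13 SE).

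In the knockdown comparisons the same list had 3 genes higher at each of 0 h and 2 h and none at 8 h, where 3.98%, 4.42% and 2.81% of all genes were higher. It had 4, 4 and 9 genes lower, where 5.14%, 7.79% and 6.14% of all genes were lower. SLC7A11, the cystine importer, was lower at each time, and CHAC1 was lower at 8 h (log2 -0.61 ± 0.14 SE, adjusted p = 0.00784, edgeR, and 0.0724 without sip53 8 h replicate 3). A further 17 genes were those for eIF2, its kinases, its exchange factor and regulators of these. With E2 at 8 h none of the 17 was called in a single arm by edgeR or DESeq2. Over all genes 1.78% were higher and 0.823% lower in siControl, and 1.55% and 1.18% in sip53, so 0 of 17 is close to those shares. At an unadjusted p under 0.05 there were 1 and 2 of the 17, beside 2583 and 2184 of all 15318 genes in siControl and sip53. The kinases EIF2AK3 (PERK) and EIF2AK4 (GCN2) were called in no knockdown comparison. PPP1R15B, the constitutive partner of PPP1R15A, was lower in sip53 at 0, 2 and 8 h (log2 -0.45 ± 0.11 SE, -0.49 ± 0.11 SE and -0.42 ± 0.11 SE), and it was called in 3, 5 and 1 of 6 fits with a library left out (adjusted p of up to 0.155, edgeR).

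Of 11 other cytosolic synthetase and scaffold genes, 1 was lower and 1 higher in sip53 at each time. RARS1, for arginine, was the lower one (log2 -0.46 ± 0.14 SE, -0.54 ± 0.14 SE and -0.64 ± 0.14 SE), and QARS1, for glutamine, the higher one (0.39 ± 0.09 SE, 0.44 ± 0.09 SE and 0.36 ± 0.09 SE). None of these 11 and none of 17 mitochondrial synthetases was called with E2 at 8 h in a single arm by edgeR or DESeq2 (0 and 3, and 3 and 2, at an unadjusted p under 0.05 in siControl and sip53). Over all genes 1.78% were called higher and 0.823% lower in siControl, and 1.55% and 1.18% in sip53, so counts of 0 in these lists are close to those shares. At an unadjusted p under 0.05 there were 2583 and 2184 of all 15318 genes. Among 6 fits per time with a library left out, RARS1 was called in 1, 3 and 5 at 0, 2 and 8 h and QARS1 in 5, 6 and 3, with adjusted p of up to 0.209 and 0.0966 (edgeR). For sip53 against siControl, a count of 1 of 11 in each direction is close to the shares of all genes given above for those comparisons.

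Chaperones and folding or degradation factors of the endoplasmic reticulum, with the transcription factor XBP1 itself, were read for comparison. The ATF6 and XBP1 arms of the unfolded protein response control such genes. Of 13 genes, 1 was higher and 3 were lower with E2 at 8 h in siControl, where 1.78% of all genes were higher and 0.823% lower. In sip53 1 was higher and 4 were lower, beside 1.55% and 1.18% of all genes. XBP1, which is not a chaperone, was the higher one (log2 0.73 ± 0.09 SE and 0.65 ± 0.09 SE). PDIA4 was lower in both (-0.51 ± 0.12 SE and -0.50 ± 0.12 SE), with SDF2L1 and CALR, and HSPA5, the chaperone BiP, was lower in sip53 (-0.39 ± 0.08 SE); these 3 were named after their values were seen. In sip53 against siControl, HSP90B1 and XBP1 were lower at all 3 times, at -0.53 ± 0.15 SE and -0.36 ± 0.09 SE at 0 h, where each call was kept in 2 of 6 fits that left out a library (adjusted p of up to 0.198 and 0.0808, edgeR). PDIA4 was kept in 4 of 6 such fits in siControl and 3 of 6 in sip53 with E2 (up to 0.114 and 0.108).

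**Figure D5:**
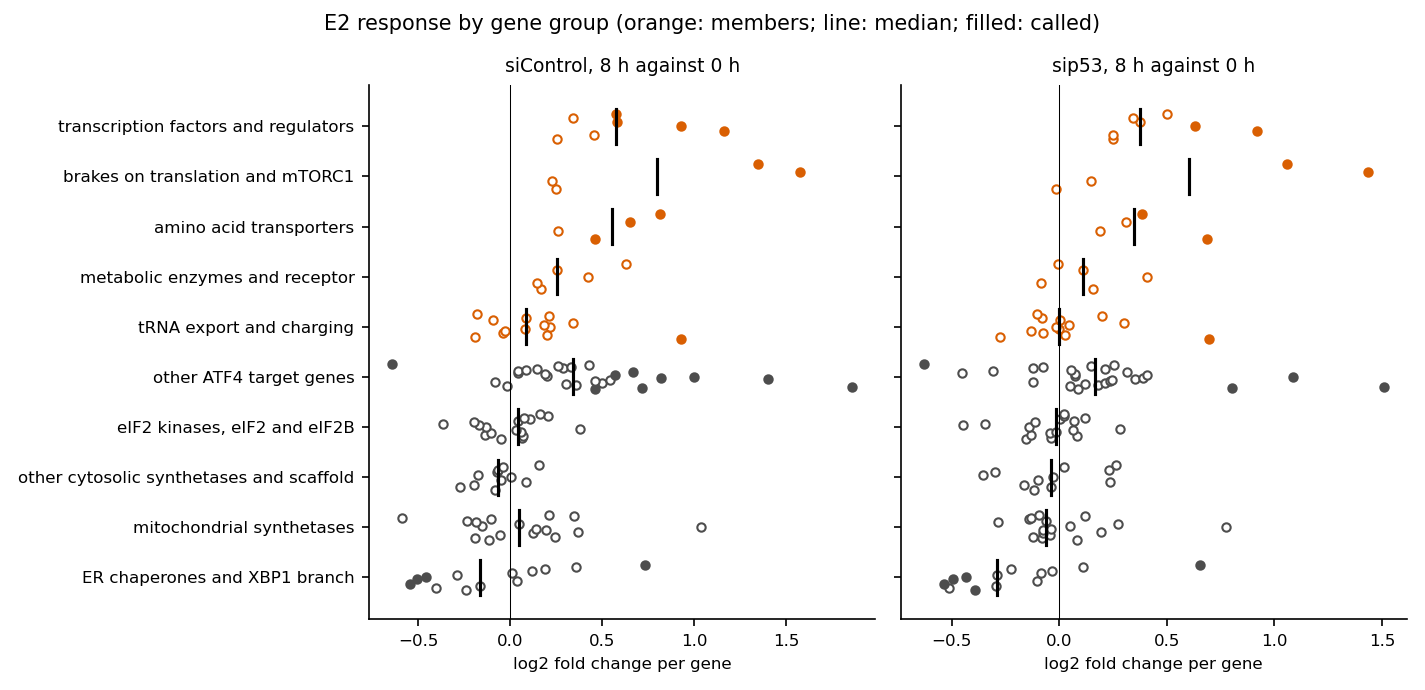
Log2 fold change per gene (x axis) at 8 h of E2 against 0 h in siControl and sip53 for the 5 member groups (orange) and 5 other lists (grey); vertical lines are list medians and filled points were called. Member groups other than tRNA export and charging have medians above 0 in both arms, while the synthetase lists centre near 0 and the endoplasmic reticulum list has its median below 0.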

How the data were processed

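RNA from 18 samples of PEO1 cells had been made into 3′-end libraries with a QuantSeq 3′ mRNA-Seq kit, per the labels' protocols. The authors deposited expected counts per gene; the submitters' processing notes name cutadapt, Bowtie2, RSEM 1.3.3, MultiQC and the hg19 build. The annotation and the strand setting are not given in the sources used here. Rows were named through GENCODE v29 transcripts, and rows without a gene held 0.635% of counts and were left out. Expected counts were rounded, which moved 0 values.

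Genes were filtered with filterByExpr (minimum count 10), which left 15318, scaled by TMM and tested with edgeR 4.0.16 (R 4.3.3) by the quasi-likelihood test in 1 fit of all 6 groups, with Benjamini-Hochberg adjustment over all genes and a threshold of 0.05. The biological coefficient of variation was 15.2%. Library totals of 7542457 to 11307199 counts limit precision for low genes. The 33 members and the other lists were chosen with earlier results of these data known. Of the other lists, the genes named were those called in sip53 against siControl with the smallest adjusted p in each direction, and a few fixed names. Genes holding the promoter core could also be named, and any other is said to be chosen after its values were seen. The alternatives were RLE and upper-quartile scaling, DESeq2 1.42.0, no filter, removal of a length and GC trend (14908 of 15318 genes and 33 of 33 members had both), only the groups compared, a replicate block, and leaving out each library. The code was tested on simulated data. Figures were drawn with matplotlib 3.10.9. The level of the gene targeted by sip53 is not reported here. Counts overlapping on opposite strands (DDIT3 and MARS1, PCK2 and NRL, WARS1 and WDR25, YARS1 and S100PBP) and members with pseudogene copies (ATF4, ASNS, NARS1, SLC7A5) are uncertain, since the counting could have split or shared reads.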

Additional observations from a re-analysis of the deposited data

How the results depend on the processing

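The 33 members gave 72 calls over 13 comparisons. Under the alternatives other than leaving out a library, 468 of 492 values kept their direction and call, 24 lost the call and 0 reversed. With 1 library left out, 574 of 672 values were kept. The number of members called moved most in the knockdown comparisons. At 0 h it was 4, and 1 with only the groups compared, and 1 to 5 with a library left out (1 without siControl 0 h replicate 2 or sip53 0 h replicate 3, 2 without sip53 0 h replicate 2). At 2 h it was 3, and 5 with only the groups compared, and 1 to 3 with a library left out (1 without siControl 2 h replicate 2, sip53 2 h replicate 1 or sip53 2 h replicate 3). At 8 h it was 7, and 11 with DESeq2, and 3 to 9 with a library left out (4 without siControl 8 h replicate 1, 3 without sip53 8 h replicate 3). Removing a trend in length and GC gave 1 member higher against 3 lower in the 0 h knockdown comparison, 0 against 7 at 8 h, and 3 against 12 averaged over the 3 times, where the reported split was 1 against 11. Upper-quartile scaling gave 3 against 11 in that average. For E2 at 2 h against 0 h in siControl the count was 0, and 2 with DESeq2, 2 with no filter, 1 after removing the length and GC trend and 0 to 2 with a library left out (2 without siControl 0 h replicate 1). In sip53 it was 0, and 1 with DESeq2. For 8 h against 2 h, added after the data were seen, it was 8 in siControl, and 5 to 6 with a library left out (5 without siControl 2 h replicate 2 or 3 or 8 h replicate 1 or 2), and 5 in sip53, and 3 to 5 (3 without sip53 2 h replicate 1 or 8 h replicate 2). For 8 h against 0 h it was 8 to 10 in siControl, 5 to 7 in sip53 and 12 to 16 averaged over both arms with a library left out, and 11 to 14 for the averaged knockdown comparison. Without the filter on low counts, the test of the difference between arms called 36 and 54 genes at 2 h and 8 h, with 0 members.

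Same-numbered libraries shared little of their deviation from the group means. Of 45 same-numbered pairs, 3 correlated above 0.1 (range -0.145 to 0.209), and 7 of 18 libraries matched their own number best. These values cannot show whether the numbers pair samples by design. With a replicate block the counts of members called were 4, 3, 8 and 12 for the knockdown at 0, 2 and 8 h and averaged, 0 and 10 for E2 at 2 h and 8 h in siControl, 0 and 7 in sip53, 0 and 0 for the differences between arms, 6 and 5 for 8 h against 2 h, and 16 for the averaged 8 h response. Depth limited the lowest member most: VLDLR had standard errors of 0.22 to 0.23 on the log2 scale in the comparisons of 1 group with another.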
